A study of Sus scrofa and Bos taurus with 31 samples.

Results

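The regions described here were open in exactly 2 of 7 cattle tissues. Peaks of 14 ATAC-seq libraries that shared at least 1 bp were merged into 450312 regions, and a tissue counted as open at a region if the libraries of M08 and of M22 each had a peak there. This left 44941 regions open in exactly 2 tissues, which was 9.98% of all merged regions and 20.7% of the 216737 regions open in at least 1 tissue (95% Wilson interval 20.6 to 20.9%, counting error only). The regions were chosen by the peak calls of these 14 libraries, so their number, their pairing, and how width and fold differ between pairs are given as descriptions without a test.

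The animals were M08 and M22, intact, sexually mature male Hereford cattle of Line 1 that had a common sire. Nuclei came from lung, spleen, liver, adipose, skeletal muscle, cerebral cortex and hypothalamus of both animals and from the cerebellum of M22. All groups were untreated tissues, so the comparisons are between tissues, with n = 2 animals in each. The cerebellum library took no part in choosing the regions and served as a measurement independent of that choice. Libraries of the same 7 tissues from 2 pigs (P348 and P350, castrated male Yorkshire littermates) were processed alike for comparison. Each library was made from a whole tissue, so more cells with an open site and more open sites per cell cannot be told apart.

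In ATAC-seq a transposase inserts adapters where DNA is not wrapped in nucleosomes, which marks promoters, enhancers and insulators. Promoters of genes that every cell uses are open in most tissues, whereas enhancers are often open in few, and a site shared by a small number of tissues can reflect a developmental origin, a function or a cell type that those tissues have in common. Cortex and hypothalamus both hold neurons and glia, while lung and spleen both hold many blood vessels and immune cells.

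Tissue sharing fell off steadily. There were 101491 regions open in 1 tissue, 44941 in 2, 25661 in 3, 15419 in 4, 9832 in 5 and 7701 in 6, and the number then rose to 11692 for all 7 tissues. Another 233575 regions had peaks but were open in no tissue by this definition, which asks for both animals. The regions open in 2 tissues had a median width of 1209 bp (quartiles 768 and 1773 bp) and covered 60.6 Mb. They were wider than regions open in 1 tissue (median 802 bp) and narrower than those open in 3 to 7 tissues, whose medians ran from 1442 to 1733 bp. Merging joins overlapping peaks of all libraries, so a region touched by more libraries can only become wider.

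The 21 tissue pairs were filled very unevenly. The expected number for a pair was taken from the share of all merged regions open in each tissue (product of the odds), scaled so that the 21 expected numbers sum to 44941. On this scale 5 pairs were above expectation and 16 below. Cerebral cortex with hypothalamus came first at 3.13 times the expected number, with 1347 regions where 430.3 were expected. Lung with spleen came second at 2.14 times (13810 regions, 6457 expected), and lung with skeletal muscle next at 1.54 times (10092 regions, 6537 expected). Liver with lung (5135 regions, 1.14 times) and adipose with lung (3118 regions, 1.01 times) lay close to 1.

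Each animal was then taken alone, so that a region needed a peak in only that animal's library. The ratio of cortex with hypothalamus was 5.72 in M08 and 2.06 in M22 (SD 2.59, n = 2 animals). Lung with spleen had 1.66 and 1.15 (SD 0.36), and lung with skeletal muscle 1.07 and 1.46 (SD 0.27). These 3 pairs were the ones above 1 in both animals. The ratios of liver with lung (1.24 and 0.80) and adipose with lung (0.94 and 1.2) lay on either side of 1, so for these the departure from expectation was within the spread between animals. Over the 21 pairs, 13 were below 1 in both animals and 5 were split, and the order of the pairs had a Spearman correlation of 0.68 between the animals. This correlation describes 21 points that share tissues and hence libraries, and carries no p-value.

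**Figure D1:**
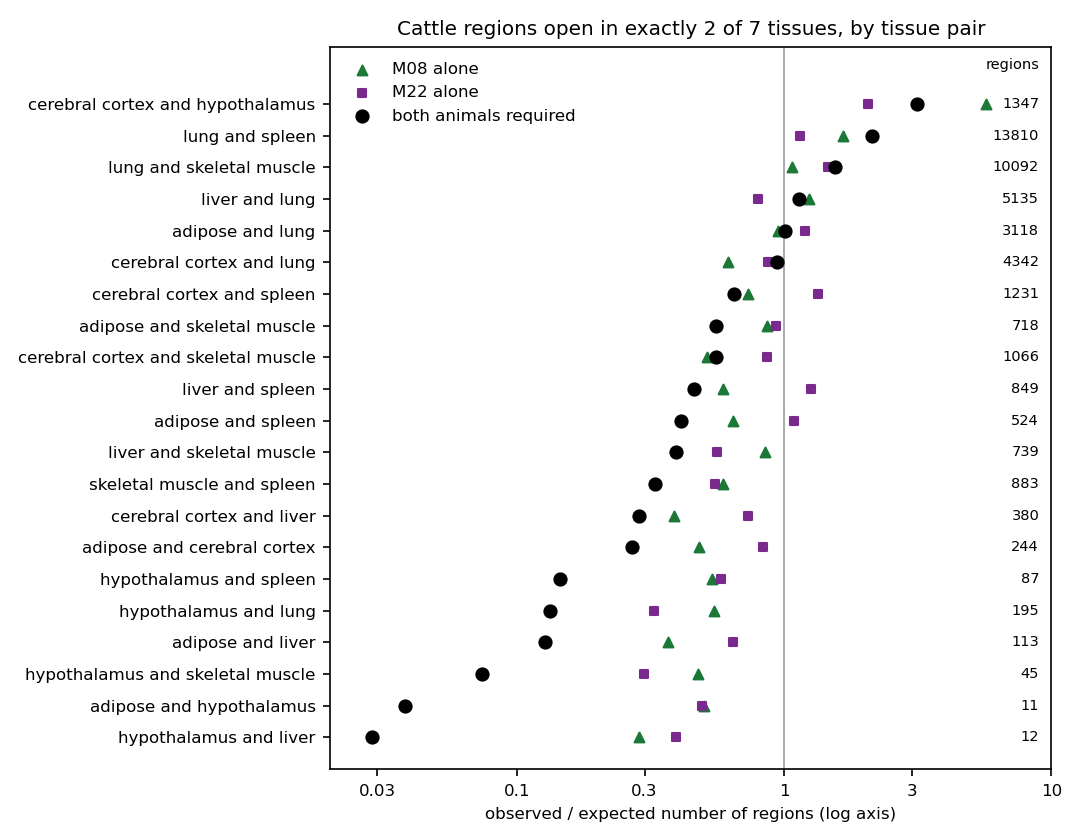
Observed over expected number of regions open in exactly 2 tissues (log axis) for each of the 21 tissue pairs. Black points require peaks in both animals, green triangles and purple squares take M08 or M22 alone, and the number of regions stands at the right. Cerebral cortex with hypothalamus is first in both animals, lung with spleen and lung with skeletal muscle are above 1 in both, and the pairs of hypothalamus with adipose, liver or skeletal muscle lie at the bottom.

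The scaling matters for how these ratios are read. Without it, independent tissues would give 104353 regions open in exactly 2 tissues, and 44941 was 0.43 times that number. Unscaled, cortex with hypothalamus was the 1 pair above expectation (1.35), and lung with spleen was at 0.92. Another way keeps each tissue's total among the members and asks only how they were combined. It gave 13.5 for cortex with hypothalamus, 1.1 for lung with spleen and 1.07 for lung with skeletal muscle. The brain pair was therefore first under each of these expectations, whereas lung with spleen and lung with skeletal muscle came near 1 under the last. Cortex with lung was at 0.75 and hypothalamus with lung at 0.18 there. Lung was in 81.6% of members, so keeping its total leaves the largest lung pairs little room to depart from 1. Their values near 1 therefore cannot show whether they lack a surplus.

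Lung was a partner in 36692 of the 44941 regions (81.6%). Lung also had the longest peak lists, with 221848 peaks in M08 and 214074 in M22, against 37204 to 194307 in the other 12 lists. It was the most frequent partner of spleen (79.4% of the spleen regions), skeletal muscle (74.5%), liver (71.0%), adipose (65.9%) and cortex (50.4%). Among its own regions the most frequent partners were spleen (37.6%) and skeletal muscle (27.5%). Hypothalamus was the exception, since 79.4% of its 1697 regions were shared with cortex and 11.5% with lung. The share of cortex regions that were shared with hypothalamus was smaller, 15.6% of 8610. Hypothalamus had the fewest open regions (21501, against 157297 in lung), and its sequencing depth was not used here, so the part of depth in these counts was not tested.

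On the scaled expectation, the emptiest pairs all contained hypothalamus or joined adipose with liver. Hypothalamus with liver had 12 regions (0.03 times expected), hypothalamus with adipose 11 (0.04 times) and hypothalamus with skeletal muscle 45 (0.07 times). Adipose with liver had 113 (0.13 times), hypothalamus with lung 195 (0.13 times) and hypothalamus with spleen 87 (0.14 times). All 6 pairs stayed below 1 in each animal alone, but much nearer to it. In M08 and M22 alone the ratios were 0.29 and 0.39 with liver, 0.50 and 0.49 with adipose, 0.47 and 0.30 with skeletal muscle, 0.55 and 0.33 with lung and 0.54 and 0.58 with spleen for the hypothalamus pairs, and 0.37 and 0.64 for adipose with liver. With the members' own tissue totals, hypothalamus with liver, lung, adipose, skeletal muscle and spleen had 0.15, 0.18, 0.21, 0.28 and 0.40. Adipose with liver had 0.48 there, just above skeletal muscle with spleen (0.47). Of the 10 pairs that joined a brain tissue to a tissue outside the brain, every one was below 1 when peaks were required in both animals, with 7613 regions in all at 0.54 times expected. Cortex with spleen was above 1 in M22 alone (1.34), with a peak in either animal (1.25) and with the members' own tissue totals (1.07), and cortex with skeletal muscle was above 1 with those totals (1.23). Cortex with lung was the highest of these at 0.94 (4342 regions). The 10 pairs without a brain tissue had 35981 regions at 1.18 times expected, but they ranged from 0.13 to 2.14, so tissues outside the brain did not combine evenly either. Among those without lung, adipose with skeletal muscle was highest (718 regions, 0.56 times).

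The pigs gave 43730 regions open in exactly 2 of the same 7 tissues, 18.3% of the open ones. Cortex with hypothalamus was again first, with 5709 regions at 2.79 times expected (2.13 in P348 and 2.81 in P350 alone). With the members' own tissue totals it was at 2.36 in pig, far below the 13.5 of cattle. Liver with spleen followed closely in pig at 2.13 under those totals. Adipose with lung was second in pig at 1.88 (1.34 and 1.58), although it was at expectation in cattle. Lung with spleen was at 1.12 and lung with skeletal muscle at 1.04 in pig, both nearer to 1 than in cattle. In all, 9 pig pairs were above 1, and the 5 cattle pairs above 1 were among them. Hypothalamus with lung, one of the emptiest pairs in cattle, was at 1.15 in pig, although the single pigs lay on either side of 1 (1.07 and 0.95). Lung with skeletal muscle was below 1 in each pig alone (0.93 and 0.92). Across the 21 pairs the ratios of both species had a Spearman correlation of 0.71, again over points that share libraries.

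**Figure D2:**
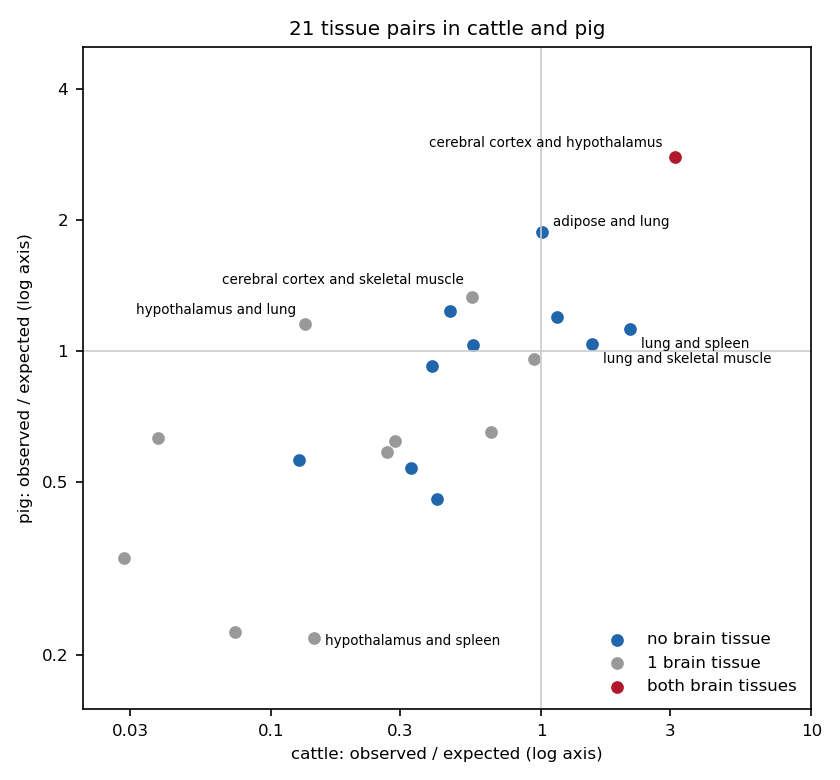
Observed over expected ratio of each tissue pair in cattle (horizontal) and pig (vertical), both on log axes, with 1 point per pair and grey lines at 1. Cerebral cortex with hypothalamus (red) is highest in both species, at 3.13 and 2.79, while adipose with lung and hypothalamus with lung are higher in pig than in cattle.

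As a further description, a pair's regions were chosen by the peaks of 1 animal and looked up in the other, using the regions merged from all 14 libraries, whose outlines both animals had shaped. Of 4091 regions with a peak in cortex and hypothalamus of M08 and in no other tissue of M08, 24.2% had both peaks in M22, against 6.34% of all merged regions. In the opposite direction 1333 regions were chosen in M22 and 55.5% of them had both peaks in M08, against 8.76% of all regions. These were 3.82 and 6.34 times the background, the highest of the 21 pairs in each direction. Lung with skeletal muscle followed a similar course, with 50.3% of 10605 regions from M08 found in M22 (background 19.8%) and 43.9% of 7786 regions from M22 found in M08 (background 17.3%). Lung with spleen was uneven, with 48.9% of 16826 regions recovered in M22 (background 25.2%) and 19.98% of 12291 in M08 (background 18.1%). Regions that M22 alone would assign to lung and spleen thus had both peaks in M08 little more often than any region. The spleen list had 194307 peaks in M22 and 111095 in M08, and its part in that difference was not tested. In all, 15 of the 21 pairs were above background when chosen in M08 and 9 when chosen in M22. The 24.2% of the brain pair from M08 was below the 44.6% of cortex with skeletal muscle, whose background was 14.5%. The look-up uses the peak lists that chose the members, so it is not separate support for any pair.

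Width separated the brain pair from the others. Cortex with hypothalamus had the narrowest regions of the 21 pairs, with a median of 641 bp (quartiles 405.5 and 1041 bp). Lung with spleen had the widest, 1396 bp (933 and 2004 bp). Lung with skeletal muscle had a median of 1236.5 bp, adipose with lung 1200.5 bp and liver with lung 1061 bp. The ratio to expectation did not follow width across pairs (Spearman 0.04 over 21 pairs). Single regions ranged from 205 to 7467 bp. Median widths depend on how many libraries are merged, and with M08 or M22 alone the brain pair had 377 and 423 bp while lung with spleen had 793 and 755 bp. The brain pair was thus the narrower of these pairs in each animal. Over all peaks, median peak widths were 345 to 461 bp in the cortex and hypothalamus lists and 530 to 583 bp in lung and spleen. They were 398 to 556 bp in liver, skeletal muscle and adipose. The part of these list widths in the pair widths was not tested.

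**Figure D3:**
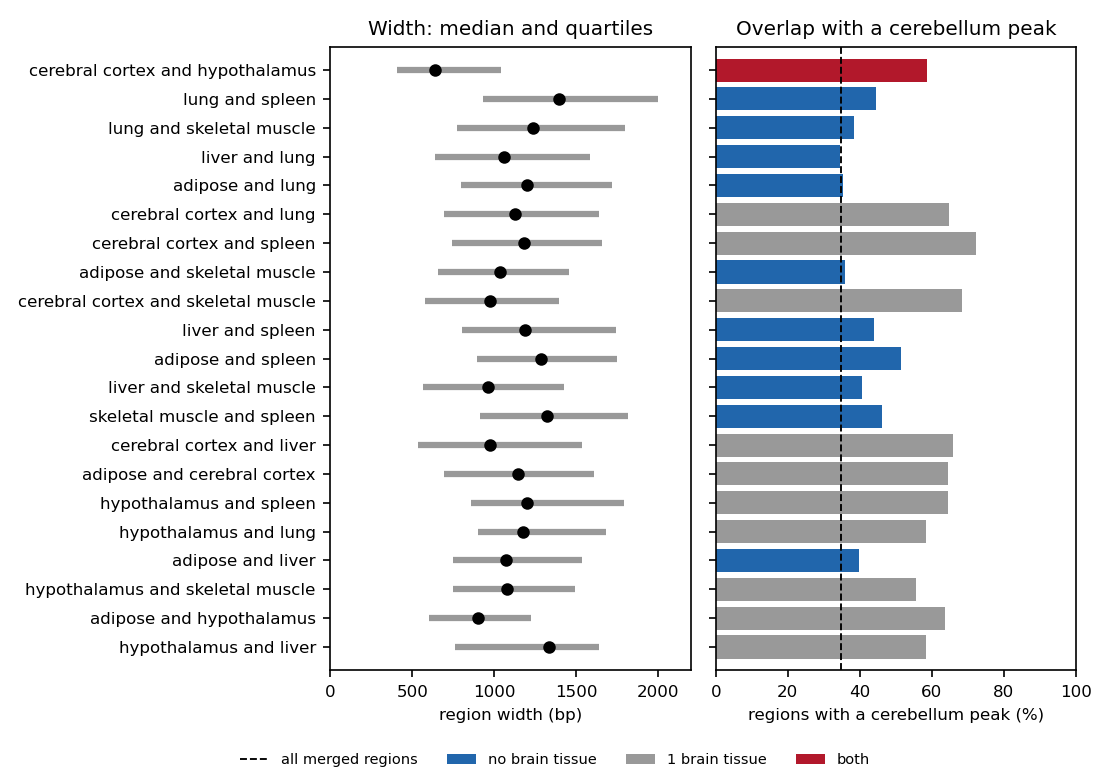
Left, region width in bp for each tissue pair in order of ratio, with the median as a point and the quartiles as a line. Right, percent of each pair's regions with a peak in the cerebellum library of M22, coloured by the number of brain tissues in the pair, with the share of all merged regions (34.8%) dashed. The brain pair is the narrowest at 641 bp, and every pair with a brain tissue has a cerebellum peak in 55.6% of its regions or more.

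The fold, column 7 of the lists, is the ratio of a peak's signal to local background given by the peak caller. Median folds of the brain pair were mostly above those of the other leading pairs. Hypothalamus of M22 was an exception, below liver of M08 in liver with lung (4.43). In the brain pair the medians were 5.51 in cortex of M08, 6.27 in cortex of M22, 5.30 in hypothalamus of M08 and 4.27 in hypothalamus of M22. Lung with spleen had the lowest folds of the 5 leading pairs, with 2.57 and 2.58 in lung and 3.10 and 2.76 in spleen of M08 and M22. For lung with skeletal muscle the medians were 2.89 and 3.03 in lung and 3.83 and 3.89 in muscle. Lung and muscle therefore had nearly equal folds in both animals, while spleen was higher in M08, and lung was the weaker partner in each animal for both spleen and muscle.

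In liver with lung, the liver had 4.43 and 3.75 and the lung 3.01 and 3.23. In adipose with lung, adipose had 3.29 and 2.88 and the lung 2.83 and 3.01. Lung was thus below its partner in both animals for liver but not for adipose, where the order differed between the animals. A fold is set against each library's own background, so levels compare more safely between regions of a library than between libraries. Over all peaks, median folds were 3.45 to 4.02 in the cortex and hypothalamus lists and 2.71 and 2.88 in lung. They were 2.75 to 3.30 in adipose and spleen, and 3.51 to 4.15 in liver and skeletal muscle.

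**Figure D4:**
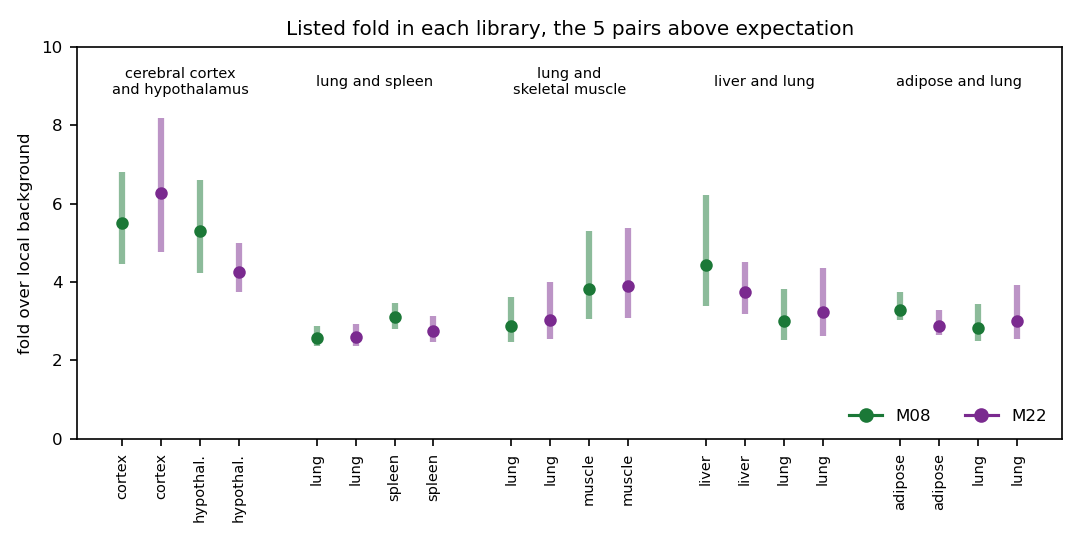
Listed fold over local background (linear axis from 0) in each of the 4 libraries that define the 5 pairs above expectation. Points are medians over a pair's regions and lines run between the quartiles, with M08 in green and M22 in purple. The brain pair has medians of 4.27 to 6.27, and lung with spleen has medians of 2.57 to 3.10.

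The weakest of a region's 4 defining peaks shows how safely it passed. Its median fold was 4.06 in the brain pair, 2.83 in liver with lung, 2.67 in lung with skeletal muscle, 2.59 in adipose with lung and 2.42 in lung with spleen. In the brain pair 256 regions (19.01%) had all 4 folds over 5, compared with 284 (2.81%) in lung with skeletal muscle and 2 of 13810 in lung with spleen. All 4 peaks had a listed q-value under 0.0001 in 287 brain regions (21.3%), 2321 lung and muscle regions (23.0%), 967 liver and lung regions (18.8%) and 57 lung and spleen regions (0.41%). The share over all 44941 regions was 10.4%. Lung and spleen regions were therefore numerous but weak in these lists, and those of the brain, of lung with muscle and of liver with lung held a much larger part of strong ones. This was not particular to pairs above expectation. Liver with skeletal muscle had the highest such share of the 21 pairs (198 regions, 26.8%), and cortex with skeletal muscle had 15.8%.

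With peaks limited to q under 0.0001 before merging, lung with spleen had 416 regions and fell to 0.49 times expected. Lung with skeletal muscle then had 7088 regions, 45.8% of all members at that limit, and stood at 1.76. Cortex with hypothalamus had 551 regions and rose to 5.29. When every list was shortened to the length of the shortest one, lung with spleen was at 0.63, lung with skeletal muscle at 1.29 and the brain pair at 6.71. Liver with lung was at 1.56 and 1.72 under the same changes, and adipose with lung at 0.60 and 1.44. The surplus of lung with spleen was thus reversed by both changes and that of adipose with lung by the first, while the other 3 pairs stayed above 1. At the stricter limit, 287 of the 551 brain regions (52.1%) lay in a region of the same pair without that limit. So did 2307 of the 7088 lung and muscle regions (32.5%) and 56 of the 416 lung and spleen regions (13.5%). For lung with muscle and lung with spleen, the regions at the stricter limit were therefore largely other ones.

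**Figure D5:**
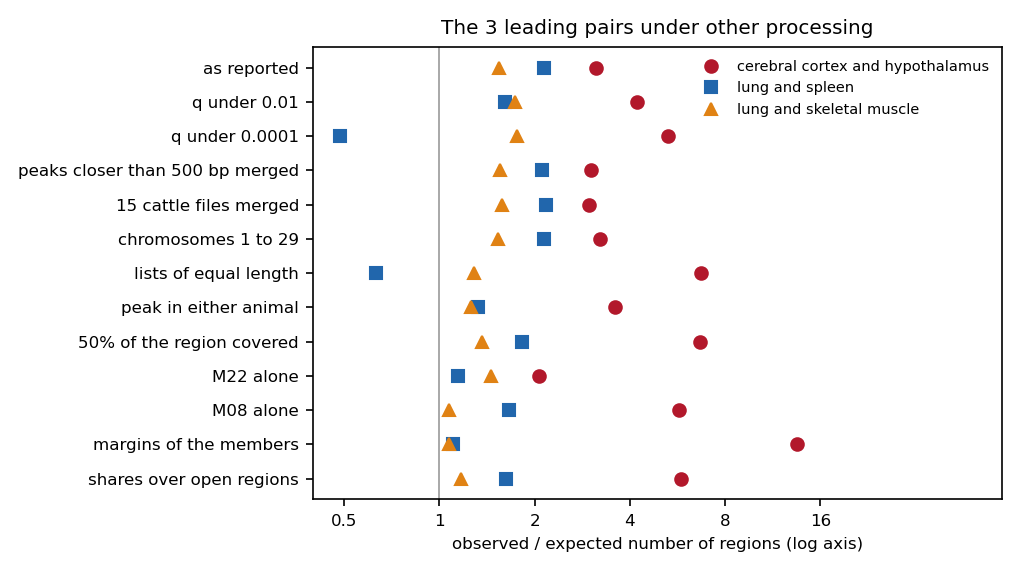
Observed over expected ratio (log axis) of the 3 leading pairs as reported and under 12 other ways of processing, 1 row each. Cerebral cortex with hypothalamus (red circles) stays between 2.06 and 13.5, lung with skeletal muscle (orange triangles) stays above 1, and lung with spleen (blue squares) drops to 0.49 with q under 0.0001 and to 0.63 with lists of equal length.

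Folds were also compared region by region within a pair. Among the 1347 brain regions the Spearman correlation of fold between M08 and M22 was 0.72 in cortex and 0.50 in hypothalamus. Between the tissues it was 0.74, with each tissue's fold averaged over both animals. All values between tissues use such means, whereas those between animals use single libraries, so one kind cannot be ranked against the other. Among the 10092 lung and muscle regions it was 0.79 between animals in lung and 0.76 in muscle, but 0.30 between the tissues. The other 3 leading pairs had 0.48 to 0.54 between tissues. The folds of both brain tissues thus followed each other more closely than those of lung and muscle, where the relation was positive but weak. Regions of a pair share their libraries and are not independent, so these values carry no p-value.

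Membership rests on a threshold. The lowest −log10 q-value of any defining peak was 1.00, and 8041 regions (17.9%) had at least 1 defining peak with a q-value above 0.05. The lowest fold of a member had a median of 2.62 (quartiles 2.36 and 3.06) and was never under 1.49. Just outside lay 28127 regions that were open in 1 tissue and 1 file short of a second. Their lone peak in the incomplete tissue had a median fold of 2.99 (quartiles 2.62 and 3.54). These are different quantities, a single peak outside and the lowest of 4 peaks inside, so they show only that both lie at low folds.

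Most members were not silent in the other 5 tissues. Only 6605 (14.7%) had no peak in any of the other 10 libraries, and the rest had at least 1 peak there that the second animal lacked. This share was 44.5% (600 regions) in the brain pair, 18.8% (1896) in lung with skeletal muscle, 17.99% in liver with lung, 18.5% in adipose with lung and 9.85% (1360) in lung with spleen. Liver with skeletal muscle had 27.3%, the highest after the brain pair. The adipose list of M22 had a peak in 14794 regions of pairs without adipose, the most of any library, and the cerebral cortex list of M22 came next with 12737.

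The 7 tissues were also compared with regions of other breadth. In each of the 14 libraries the median fold at regions open in all 7 tissues (3.78 to 7.54) was above that at regions open in 2 (2.73 to 4.76). Regions open in 2 tissues had a higher median than those open in 1 in only 5 of 14 libraries, namely both hypothalamus and both cortex libraries and the spleen of M22. In hypothalamus of M08 the median was 4.76 at regions open in 2 tissues and 3.40 at regions open in 1. In liver of M08 the order was the opposite, with 4.34 against 5.05. Only 407 regions were open in hypothalamus alone, and 79.4% of its 1697 members were shared with cortex. Its median folds were 5.30 (M08) and 4.27 (M22) in the pair with cortex. In its pairs with tissues outside the brain they were 3.23 to 3.61, against 3.40 (M08) and 3.57 (M22) at regions open in it alone. The higher fold in hypothalamus thus went with sharing with cortex, not with any tissue. In liver and muscle the fold at members was not higher.

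The fold at members was compared between the animals, since the choice of regions asks for a peak in both. The log2 ratio of the median fold in M22 to that in M08 was -0.19 in adipose, 0.03 in cortex, -0.22 in hypothalamus, -0.23 in liver, 0.04 in lung, 0.03 in skeletal muscle and -0.17 in spleen. The mean was -0.10 ± 0.13 (SD, n = 7 tissues), with 3 tissues positive and 4 negative. A sign-flip permutation test over tissues (exact, two-sided) gave p = 0.125, where the smallest possible value was 0.0156. The test compares these 2 animals only, over tissues of the same animals, and each region enters under both of its tissues. The folds come from the lists that chose the regions, and those lists differed in length between the animals. Adipose had 62000 peaks in M08 and 140106 in M22, whereas hypothalamus had 63147 and 37204. The test therefore cannot separate a difference at members from a difference between lists, and no conclusion is drawn from it.

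The cerebellum library gave the test that is independent of the rule. Of all merged regions 34.8% had a cerebellum peak, and of the 44941 members 20380 (45.3%) did. The share rose with the number of open tissues, from 29.7% for 1 to 56.4% for 3 and 99.4% for all 7. Members lay on this rise, between regions open in 1 tissue and in 3. By tissue the share was 65.4% of the cortex regions and 58.9% of the hypothalamus regions, but 46.8% for spleen, 43.1% for lung, 41.3% for skeletal muscle, 38.8% for adipose and 38.0% for liver. The brain tissues averaged 62.1% ± 4.64 (SD, n = 2 tissues) and the others 41.6% ± 3.55 (SD, n = 5). Both brain tissues were above all 5 others. At regions open in 1 tissue the shares were 51.8% for cortex and 45.7% for hypothalamus, against 24.9 to 38.0% for the 5 others. The contrast was therefore not particular to the members.

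The difference of 20.5 percentage points had p = 0.0476 in an exact one-sided permutation test over the 21 choices of 2 of 7 tissues, the smallest value this design allows. It did not rest on the brain pair, because without those 1347 regions the difference was 21.6 points. When peaks had to cover at least 50% of a region in each animal, the difference was 10.4 points with an exact permutation p = 0.0952. Every region counts under both of its tissues, and the cerebellum came from M22 alone, so the 7 shares are not fully independent. Median widths were 1027.5 bp for cortex and 762 bp for hypothalamus against 1061 to 1358 bp for the other 5 tissues, and the part of width in these shares was not tested.

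Regions of cortex with a tissue outside the brain overlapped cerebellum peaks most often, 72.2% with spleen, 68.5% with skeletal muscle, 65.8% with liver and 64.9% with lung. Cortex with hypothalamus, at 58.6% (790 regions), ranked eighth of the 21 pairs. Pairs without a brain tissue ran from 34.5% in liver with lung to 51.3% in adipose with spleen. Where a cerebellum peak was present, its median fold was 3.59 in the brain pair, 3.81 in cortex with skeletal muscle (the highest) and 2.95 in lung with spleen. Cerebellum peaks were thus more frequent at any pair that contained a brain tissue, and not most frequent at the pair made of both.

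Distance to broadly open regions was also measured. The median distance to the nearest of the 11692 regions open in all 7 tissues was 81.6 kb for members and 80.6 kb for regions open in 1 tissue, and 67.3 kb for regions open in 3 to 6. Lung with skeletal muscle was nearer (49.8 kb) and lung with spleen farther (120.0 kb), with the brain pair between them (80.8 kb). A region open in all tissues lay within 5 kb of 2.84% of members and of 3.55% of regions open in 1 tissue. The X chromosome held 1.39% of members and 1.71% of all merged regions. The distances thus differed more among the pairs than between members and regions open in 1 tissue.

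The nearest other member of each region was looked up as well. It belonged to the same pair more often than that pair's share of members in 17 of the 21 pairs, and in no region of the 4 smallest hypothalamus pairs. For 9.14% of brain pair regions the nearest other member belonged to the same pair, while the pair made up 2.997% of members. The corresponding values were 41.2% and 30.7% for lung with spleen, 36.0% and 22.5% for lung with skeletal muscle and 16.5% and 11.4% for liver with lung. Neighbouring regions can be parts of one broader open domain, and this was described without a test.

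The regions with the highest weakest fold illustrate each pair. Positions are in ARS-UCD1.2, the cattle build of the lists, and cattle gene annotation was not used here, so they are given without genes. They were chosen for their folds, which are therefore illustrations only. In the brain pair, chr27:10896618-10897003 had folds of 12.2 (M08) and 15.6 (M22) in cortex and 12.1 and 11.0 in hypothalamus. It had a cerebellum fold of 7.04 and no peak in the other 10 libraries. The next, chr24:9435474-9435871, had 10.5 and 13.9 in cortex and 9.74 and 10.7 in hypothalamus. It also had a peak in 3 other libraries, the liver, lung and muscle of M22, with folds of 2.96 to 4.29. A wider one, chr9:32906913-32908918, spanned 2006 bp and had 11.4 and 12.7 in cortex and 11.0 and 9.63 in hypothalamus, with weaker peaks in lung of M08 (2.53) and spleen of M22 (2.73). The strongest brain pair sites thus ran from peaks in brain libraries alone to additional weak peaks elsewhere.

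Lung with spleen was led by chr3:68047095-68048164, with 6.89 and 8.90 in lung and 5.57 and 10.5 in spleen. It also had peaks in adipose, cortex and liver of M22, the last with a fold of 6.56. The region chr12:1625359-1626217 had 8.24 and 6.58 in lung and 5.23 and 6.57 in spleen, with no cerebellum peak. The region chr1:60181242-60181590 had 5.05 and 5.42 in lung and 4.87 and 5.33 in spleen. Even the strongest sites of this pair had a peak in 2 or 3 other libraries.

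For lung with skeletal muscle, chr22:28195025-28196094 had 10.3 and 11.9 in lung and 12.7 and 13.4 in muscle. The region chr2:5740735-5741138 had 9.93 and 12.1 in lung and 14.7 and 15.1 in muscle, with no peak in the other 10 libraries. The region chr6:45598769-45599486 had 10.2 and 11.0 in lung and 10.7 and 9.97 in muscle. These are 404 to 1070 bp wide, and their weakest folds of 9.93 to 10.3 lay in the range of the leading brain sites, 9.63 to 11.0.

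For liver with lung, chr12:11222171-11224365 had 10.4 and 10.7 in liver and 13.9 and 14.9 in lung. The region chr8:22049430-22050180 had 10.9 and 9.69 in liver and 13.4 and 13.3 in lung, and chr8:45276777-45277305 had 13.6 and 8.83 in liver and 12.4 and 12.5 in lung. For adipose with lung, chr10:80346692-80347325 had 5.80 and 5.61 in adipose and 7.37 and 9.94 in lung. The region chr1:142786790-142788044 had 6.88 and 5.90 in adipose and 5.40 and 6.82 in lung, and chr1:18661307-18661656 had 5.17 and 5.48 in adipose and 5.28 and 8.01 in lung. Lung had the higher fold in both animals at 4 of these 6 regions.

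Pairs below expectation also held strong regions. The highest weakest fold of any member was 11.0, at chr20:28286185-28286544, which was open in liver (16.97 and 11.3) and skeletal muscle (13.7 and 11.0) and had no peak in any other library or in cerebellum. Cortex with skeletal muscle had chr4:42816035-42817302, with 8.18 and 7.86 in cortex and 12.3 and 12.1 in muscle. This region also had a peak in hypothalamus of M08 (6.18) and in spleen of M22 (4.10). Cortex with lung had chr16:24036020-24036808, with 7.69 and 12.5 in cortex, 7.18 and 7.80 in lung and a cerebellum fold of 13.1, higher than in either tissue of the pair. It also had a peak in hypothalamus of M08 (7.71) and a weaker one in adipose of M22 (2.87). Liver with spleen had chr14:61565698-61566166, with 6.14 and 5.56 in liver and 7.70 and 11.06 in spleen. Among the 31 regions picked in this way, 24 had a cerebellum peak and 3 had no peak in the other 10 libraries, of which only the liver and muscle region also lacked a cerebellum peak. In the emptiest pair, hypothalamus with liver, the best region was chr3:42189985-42190335, with 4.34 and 3.86 in hypothalamus and 11.08 and 5.87 in liver.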

How the data were processed

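The authors profiled nuclei by ATAC-seq and deposited 1 list of broad MACS2 peaks per library, with replicates not pooled and a stated q-value limit of 0.05. The submitters' processing notes name Trim Galore 0.4.5, BWA 0.7.17, SAMtools 1.10 and Picard 2.18.17, and the builds ARS-UCD1.2 and Sscrofa11.1. A shift of read ends is not given in the sources used here. The lists have 9 columns. Column 5 holds the deposited score, column 7 the deposited fold enrichment (a ratio to local background), column 8 the deposited −log10 p-value, and column 9 the deposited −log10 q-value, each averaged by the authors' caller over a broad peak. Sequencing depth was not used here, so longer lists may reflect deeper libraries.

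Peaks of 14 cattle libraries sharing 1 bp were merged, with a region's fold in a library taken from its highest peak. Of the pig lists, 14 were processed alike and the 2 of cerebellum were not used. The members, pairs and named regions were chosen with earlier results of these data known. Named regions were, on chromosomes 1 to 29 and X, the 3 (for the other 16 pairs, the 1) with the highest value of the smallest of the 4 folds. The animal names pair the libraries across tissues, since each name is 1 animal. The tests were exact permutation tests over tissues with a threshold of 0.05. Alternatives were q-value limits of 0.01 and 0.0001, merging of peaks closer than 500 bp, 15 files, chromosomes 1 to 29, lists of equal length by −log10 p-value, a peak in either animal, 50% coverage, other expected numbers, and single animals or tissues left out. The calculations were tested on simulated data and used Python 3.11.15 with numpy 2.4.6, pandas 2.3.3, scipy 1.17.1 and matplotlib 3.10.9.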

Additional observations from a re-analysis of the deposited data

Results flagged for a closer look

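At 2 tissue pairs, both cattle lay on one side of the expected number and both pigs on the other. For lung with skeletal muscle the ratios of the single animals were 1.07 and 1.46 for the cattle, 0.93 and 0.92 for the pigs, so that the mean was 0.34 higher in cattle. For cerebral cortex with skeletal muscle the cattle had 0.52 and 0.86 whereas the pigs had 1.09 and 1.29, and the cattle mean minus the pig mean was -0.50. Neither difference was tested.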

How the results depend on the processing

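Cerebral cortex with hypothalamus ranked first of the pairs in 17 of 17 alternatives in which it could be counted, at 2.06 to 13.5, including 6.71 with lists of equal length, 6.67 with 50% coverage, 5.82 with shares taken over open regions, 13.5 with the members' own totals, and 2.06 to 5.72 with an animal left out. Lung with spleen was reversed at q under 0.0001 (0.49) and with lists of equal length (0.63), and moved to 1.62 at q under 0.01, 1.32 with a peak in either animal, 1.1 with the members' totals, 1.63 over open regions and 1.15 to 1.66 with an animal left out. Lung with skeletal muscle moved to 1.26, 1.07 and 1.17 for a peak in either animal, the members' totals and open regions, and had 1.07 to 1.46 with an animal left out. Of 306 alternative values of the other 18 pairs, 191 stayed within 1 SD, 107 moved and 8 reversed, where a reversal was counted only if both animals alone lay on the side of 1 reported. Without that condition, 26 of the 306 lay across 1 from the value reported. The 8 were adipose with skeletal muscle (1.24 with lists of equal length, 1.55 with the members' totals, 1.65 without lung), cortex with liver (1.09, lists of equal length), cortex with lung (1.07, without spleen), cortex with skeletal muscle (1.23, members' totals) and liver with skeletal muscle (1.02, members' totals, and 1.15 without lung). The cause was not tested.

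The number of members was 28563 and its share of open regions 18.5% at q under 0.01, 15468 and 16.5% at q under 0.0001, 11473 and 16.3% with lists of equal length, 82119 and 18.2% with a peak in either animal, and 19346 and 15.2% with 50% coverage. With an animal left out they were 67284 to 74766 and 18.7 to 19.99%. The difference in cerebellum peaks was 15.1 points when regions were built from each animal alone and the tissue shares averaged (exact permutation p = 0.0476). Both builds used the cerebellum library of M22. Over its alternatives the difference was 10.4 to 22.6 points, of which 50% coverage ended the call (exact permutation p = 0.0952). The fold difference between animals passed the threshold in none of its alternatives that were run. Its folds come from the lists that chose the regions, so no conclusion is drawn from this either. With 2 animals per tissue that share a sire, the spread between unrelated animals could not be measured, and read depth was not used here.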
